A study of Mus musculus with 8 samples.

Results

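The genes described here are the colony-stimulating factors and their receptors that were chosen by name from the count tables: the ligand genes Csf1 and Csf2 and the receptor genes Csf1r, Csf2ra, Csf2rb, Csf2rb2 and Csf3r. These 7 genes were followed among 21742 genes listed in the tables of 8 libraries, by library and by the class of cell that held their transcripts. Csf1 encodes the macrophage colony-stimulating factor M-CSF, and Csf2 encodes the granulocyte-macrophage factor GM-CSF. Csf1r encodes the receptor tyrosine kinase for M-CSF. Csf2ra encodes the alpha chain of the GM-CSF receptor, Csf2rb the beta chain that the receptors for GM-CSF, IL-3 and IL-5 share, and Csf2rb2 a second mouse beta chain that serves IL-3. Csf3r encodes the receptor for the granulocyte factor G-CSF.

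M-CSF keeps monocytes and macrophages alive and drives their differentiation. GM-CSF acts on monocytes, dendritic cells and granulocytes through a receptor that signals by JAK2 and STAT5, and G-CSF acts through its own receptor on neutrophils and their precursors. In a skin wound neutrophils arrive first and monocytes and macrophages follow, so the producers and the receivers of these factors change as healing goes on.

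Cells positive for CD45, a surface protein of blood-derived cells, were collected from skin wounds of C57BL/6 mice (C57BL6J in the treatment protocol) on days 1, 3, 5 and 7. The diabetic group had received streptozotocin (STZ), a toxin for insulin-producing cells, at 120 mg/kg at 4 weeks of age after fasting, and counted as diabetic from a glucose of 300 mg/dL. The control group had wounds without STZ, and the labels name no allele or transgene in either group. Each group and day was 1 library made from pooled mice, so differences between mice could not be seen and the days had to serve as replicates. Cells were captured with BD Rhapsody according to the methods, but with 10X Genomics according to the deposited design. The question put to each gene was which cells held it, how its level moved from day 1 to day 7, and whether it differed between diabetic and control wounds.

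The tables held 38959 barcodes, and 35158 of these were kept as cells, with over 200 genes and under 20% mitochondrial UMIs (unique molecular identifiers, the counted transcripts). The libraries held between 3266 and 5436 cells and between 18814802 and 32956113 UMIs in cells. The control library of day 5 stood apart: 28.6% of its barcodes were removed, against 1.00% to 10.8% in the other libraries, and its cells had a median of 8234 UMIs, against 2575 to 5219. It also held 274 neutrophil-like cells, against 1931 in the diabetic library of the same day. Cells were clustered without the 7 genes, and clusters were named from marker genes that did not include them. Of the cells, 13901 were neutrophil-like, 6243 macrophage-like, 5324 monocyte-like and 2816 dendritic-like. A further 2463 were T cell-like, 538 NK cell-like and 147 mast cell-like, 380 osteoclast-like, 49 fibroblast-like and 3297 without a name. In neutrophil-like cells the 7 neutrophil markers summed to 34450 CPM (UMIs of a gene scaled to the same total in each sum of cells), and in macrophage-like cells the 9 macrophage markers summed to 21700 CPM, with 0 of either list absent. Cells shared by libraries could not be counted, since the cell names in the tables are running numbers.

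The levels in all cells of a library are given first. Csf1 stood at 349, 241, 252 and 92.2 CPM in the diabetic libraries of days 1, 3, 5 and 7 and at 327, 176, 34.8 and 74.3 CPM in the control libraries. It was higher in the diabetic library on all 4 days, and the 2 ranges overlapped. Csf2 stood at 0.788, 1.64, 5.50 and 3.67 CPM in the diabetic libraries, from 15, 40, 118 and 79 UMIs, and at 1.22, 1.77, 1.26 and 2.12 CPM in the control libraries, from 23, 36, 37 and 70 UMIs. Each of these Csf2 values therefore rested on few UMIs, and the diabetic library was higher on days 5 and 7.

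Csf1r stood at 351, 663, 526 and 716 CPM in the diabetic libraries and at 311, 794, 1014 and 1012 CPM in the control libraries, with the control library higher from day 3 on. Csf3r stood at 296, 248, 220 and 96.9 CPM in the diabetic libraries and at 322, 360, 58.5 and 132 CPM in the control libraries. Its control value of day 5 lay below all others, and the control library was higher on the other 3 days. Csf2ra stood at 954, 663, 670 and 528 CPM in the diabetic libraries and at 877, 663, 405 and 558 CPM in the control libraries.

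The ranges of the beta chains did not overlap. Csf2rb stood at 938, 886, 1257 and 868 CPM in the diabetic libraries and at 811, 801, 426 and 625 CPM in the control libraries. Csf2rb2 stood at 254, 244, 347 and 241 CPM in the diabetic libraries and at 238, 167, 148 and 157 CPM in the control libraries. For both, the lowest diabetic value lay above the highest control value, and the other 5 genes overlapped. For Csf2rb2 these were 241 (234 to 247) and 238 (232 to 246) CPM, which lay within counting error of each other. Over all genes tested, 2.35% did not overlap between the groups in either direction.

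**Figure D1:**
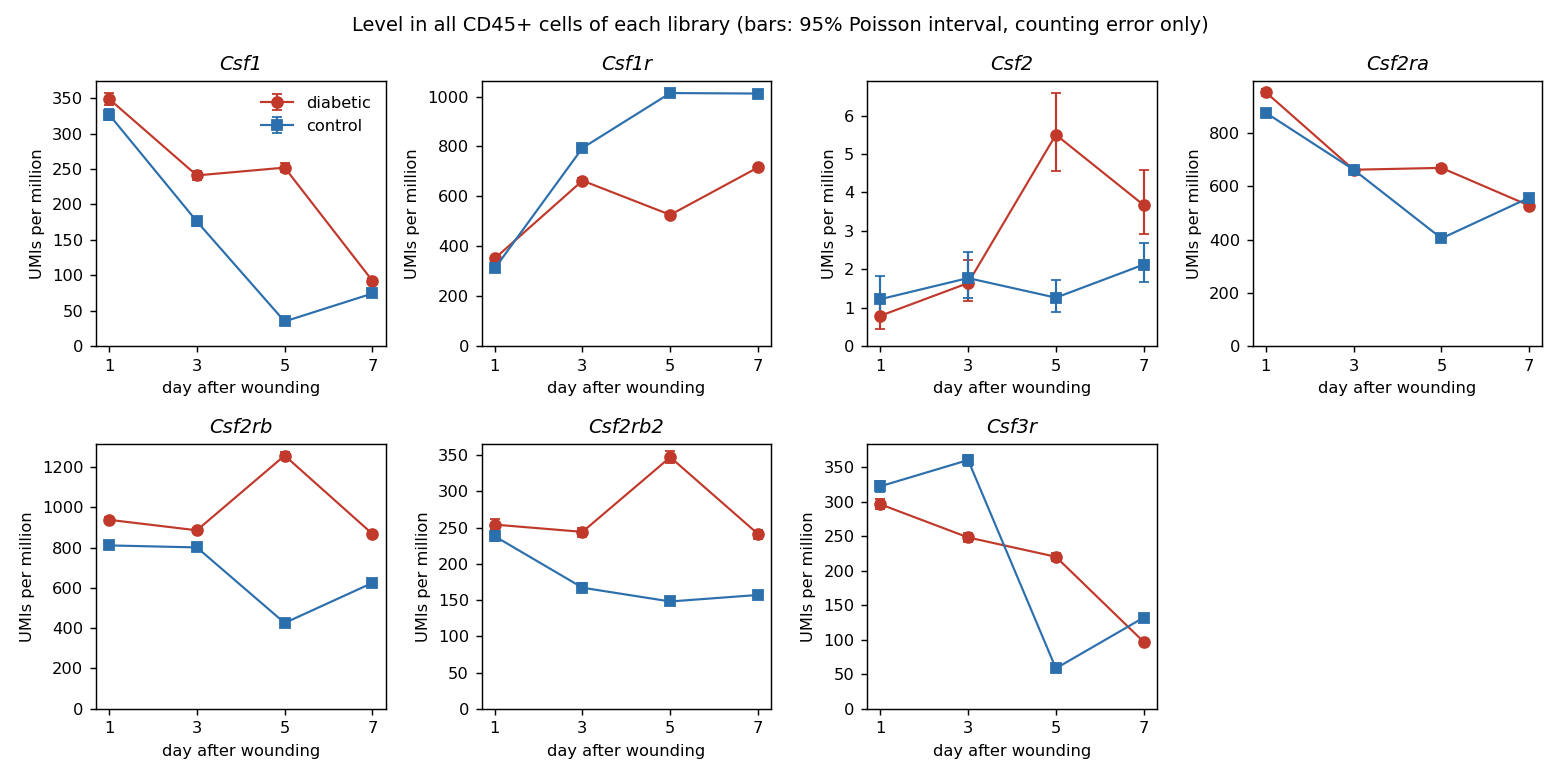
Level of each gene in all cells of a library (vertical axis, CPM) against the day (horizontal axis) for diabetic and control wounds, with bars for the 95% Poisson interval, which covers counting error only. Csf2rb and Csf2rb2 lie higher in every diabetic library than in any control library, and the largest gaps between the lines are on day 5.

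The ratio of the diabetic to the control library of a day carries an exact 95% interval that covers counting error only, and no test, since a day has 1 library a group. On day 5, Csf1 was 7.25-fold (6.78 to 7.76) higher in the diabetic library, Csf2 4.38-fold (3.0 to 6.51), Csf3r 3.76-fold (3.56 to 3.97), Csf2rb 2.95-fold (2.89 to 3.01) and Csf2rb2 2.34-fold (2.26 to 2.43). Csf1r was at 0.519 (0.507 to 0.530) of the control level. These 5 of 7 genes passed 2-fold on day 5, where 29.6% of all genes tested passed 2-fold in either direction. On days 1, 3 and 7, 0 of 7 did, against 5.64%, 9.38% and 10.2% of all genes tested.

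In such sums over all cells, fewer cells of a type and less RNA per cell cannot be told apart. Each library was therefore rebuilt with every class at its mean share of UMIs. With that fixed make-up, the ratio of day 5 came to 2.13 for Csf1, 2.07 for Csf2, 1.07 for Csf3r, 1.61 for Csf2rb, 1.61 for Csf2rb2, 1.23 for Csf2ra and 0.795 for Csf1r. On that day the ratio of Csf3r thus came close to 1, while those of Csf1, Csf2 and the beta chains kept a part of their size. Clusters within a class were not held fixed. A neutrophil-like cluster led by Il23a, for example, held 870 diabetic against 24 control cells on day 5. The part of such clusters in the remaining ratios was not tested. On day 3, where the classes of the libraries were more alike, the ratio of Csf3r was 0.689 as measured and 0.616 with the fixed make-up, and that of Csf2rb2 was 1.46 and 1.43. The ratio of day 7 went from 1.39 to 1.07 for Csf2rb and from 1.24 to 1.54 for Csf1. For Csf2 on day 1, on few UMIs, it went from 0.644 to 0.319.

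Among the producers in these cells collected for CD45, Csf1 lay mainly in neutrophil-like cells. Wound cells without CD45 were not collected, so their part was not seen. Over all libraries, 82.0% of its 33120 UMIs lay in neutrophil-like cells, which held 22.5% of all UMIs and were 39.5% of the cells. The share was 88.9%, 81.8%, 88.1% and 65.2% in the diabetic libraries of days 1, 3, 5 and 7 and 88.6%, 83.1%, 40.0% and 62.8% in the control libraries. The control library of day 5 again stood apart, with 35.6% of its Csf1 UMIs in macrophage-like cells. The share depended on how cells were named, and was 59.6% with each cell named singly from its own marker score and 67.8% with finer clusters, where a cluster of 1660 cells led by Il23a and Csf1 was left without a name.

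By level, mast cell-like cells came first for Csf1, with a median of 1367 CPM over the 4 libraries with at least 20 such cells, above neutrophil-like cells in 4 of 4 libraries. Neutrophil-like cells followed with a median of 643 CPM and a range of 281 to 850 CPM. Fibroblast-like cells came next, with 241 CPM from 114 UMIs in the 1 library with at least 20 such cells. All other classes with 2 or more libraries, unnamed cells included, had medians of 19.3 to 43.9 CPM, and neighbours in that order, such as monocyte-like (41.6 CPM), macrophage-like (35.9 CPM) and T cell-like cells (34.6 CPM), did not differ in the same direction in all libraries. After thinning each cell to 1000 UMIs, 24.9% to 35.1% of neutrophil-like cells and 1.69% to 7.19% of T cell-like cells of a library had a Csf1 UMI. Without thinning, a Csf1 UMI was found in 43.3% of neutrophil-like cells, at a median depth of 2474 UMIs, and in 11.1% of T cell-like cells, at 3915 UMIs.

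Neutrophil-like cells were not alike in Csf1. The cluster led by Il23a and Il1a, both genes of inflammatory cytokines, held 35.4% of all Csf1 UMIs in 11.2% of the cells, and Csf1 itself was among its 10 leading genes. In that cluster Csf1 stood at 1261, 1225, 1015 and 509 CPM in the diabetic libraries and at 969, 1692, 248 and 411 CPM in the control libraries. The cluster led by Ngp and Retnlg, genes of neutrophil granules, had 307 to 482 CPM, and was lower than the Il23a cluster in 5 of 5 libraries, by a median log2 difference of 1.65. In neutrophil-like cells as a whole Csf1 stood at 850, 688, 778 and 425 CPM in the diabetic libraries and at 727, 598, 348 and 281 CPM in the control libraries, higher in the diabetic library on all 4 days with overlapping ranges. The ratio was 1.17 on day 1, 1.15 on day 3, 2.23 on day 5 and 1.51 on day 7. The clusters of these cells differed between the groups: the Il23a cluster held 802 diabetic against 165 control cells on day 3 and 870 against 24 on day 5. On days 1 and 7 Csf1 was higher in the diabetic library in each cluster with at least 20 cells in both libraries. In the cluster led by Igkc and Cxcr2 it stood at 1108 against 662 CPM on day 1 and at 353 against 95.6 CPM on day 7. Some of these gaps lay within counting error, as in the cluster led by Cxcr2 and then Igkc on day 1 (1025 against 963 CPM). On days 3 and 5 single clusters did not share the direction. The ratio of day 3 was 0.724 in the Il23a cluster and 0.538 in the cluster led by Slfn4 and Rsad2. It was 1.25 in the cluster led by Cxcr2 and then Igkc. On day 5 the ratios were 4.10 in the Il23a cluster, on 37 control UMIs, and 0.870 in the cluster led by Igkc and Cxcr2. In the cluster led by Cxcr2 and then Igkc, Csf1 stood that day at 775 CPM in the diabetic and 257 CPM in the control library.

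Csf1 in T cell-like cells was low but did not overlap between the groups. It stood at 45.5, 59.4, 47.3 and 36.7 CPM in the diabetic libraries and at 20.6, 27.0, 32.4 and 25.3 CPM in the control libraries. Over all genes tested in T cell-like cells, 2.62% did not overlap. Between 8 and 119 UMIs lay behind each of these values, and the nearest, 36.7 (30.4 to 44.0) and 32.4 (22.3 to 45.5) CPM, lay within counting error. On day 7 the clusters differed, with 165 diabetic against 269 control gamma-delta T cells and 169 against 56 cells in the Ctla4 cluster. Within clusters the values rested on few UMIs. The diabetic value was lower in gamma-delta cells on day 1 (12.1 against 30.0 CPM, from 3 and 5 UMIs). So it was in the Ctla4 cluster on day 5 (32.1 against 59.0 CPM, from 10 and 13 UMIs). It was also lower in the main alpha-beta cluster on day 7 (32.5 against 33.7 CPM), and higher in the other comparisons. Counting intervals overlapped in each of the lower pairs. Among the higher pairs they were apart in the main alpha-beta cluster on day 5 (71.0 against 22.6 CPM). The 7 neutrophil markers summed in T cell-like cells to 4520, 2180, 1520 and 1181 CPM in the diabetic libraries and to 4112, 1521, 547 and 1312 CPM in the control libraries, with 0 of 7 at 0. They were higher in the diabetic library on days 1, 3 and 5, and their part in the Csf1 of T cell-like cells was not tested.

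Csf2 was spread over few cells. Of its 418 UMIs, 36.8% lay in T cell-like cells, 21.8% in macrophage-like, 19.6% in monocyte-like and 10.3% in NK cell-like cells, and 190 of 35158 cells had a Csf2 UMI. These classes held 6.39%, 28.8%, 20.2% and 1.6% of all UMIs, and the median level of Csf2 was 10.3 CPM in T cell-like, 1.27 CPM in macrophage-like, 1.11 CPM in monocyte-like and 2.78 CPM in NK cell-like cells. The 43 UMIs of NK cell-like cells lay in 11 cells, 1 of which held 16. The T cells with the gamma-delta receptor, named from Trdc and led by Il17f, held 115 of the 418 Csf2 UMIs in 2.98% of the cells. In them Csf2 stood at 24.3, 11.9, 31.8 and 54.0 CPM in the diabetic libraries and at 36.0, 12.2, 22.4 and 16.6 CPM in the control libraries, from 4 to 36 UMIs a library. It was higher there than in the main cluster of alpha-beta T cells in 7 of 8 libraries, and the control library of day 1 went the other way, with 58.1 CPM from 12 UMIs in alpha-beta cells.

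In monocyte-like cells Csf2 stood at 0.525, 2.93, 8.61 and 1.70 CPM in the diabetic libraries, from 5, 18, 48 and 3 UMIs, and at 0.212, 0, 5.48 and 0 CPM in the control libraries, from 2, 0, 6 and 0 UMIs. On day 5 the ratio was 1.57 (0.671 to 4.49), so that a difference was not detectable at this depth, and the counts of days 1 and 7 were too low to compare. One monocyte-like cell held 19 Csf2 UMIs, the most in any cell, so single cells weigh on these sums. Mast cell-like cells had 9 Csf2 UMIs in the 4 libraries with at least 20 cells, all in the control libraries. The diabetic libraries of days 1 and 3 had 0 in 23 and 25 cells, with upper bounds of 34.7 and 38.7 CPM. Below 20 cells, the diabetic libraries of days 5 and 7 and the control library of day 7 had 1 UMI each. These counts are too low to compare the groups.

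**Figure D2:**
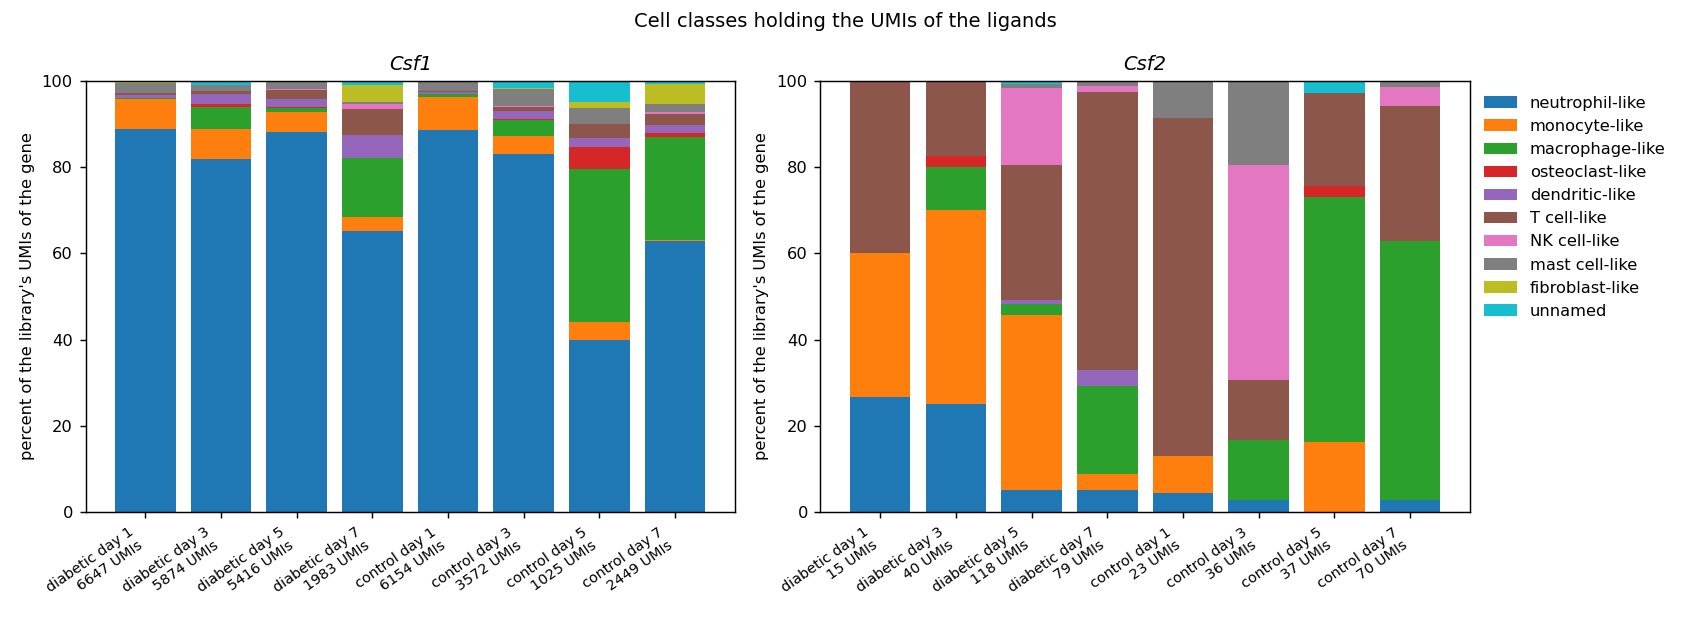
Share of the UMIs of Csf1 and Csf2 (vertical axis, percent of the UMIs of the gene in a library) by cell class, 1 bar a library, with the number of UMIs under each bar. Neutrophil-like cells hold most of Csf1 in 7 of 8 libraries, with the control library of day 5 the exception at 40.0%, and Csf2 is divided mainly among T cell-like, monocyte-like, macrophage-like and NK cell-like cells on few UMIs, with a neutrophil-like share in the diabetic libraries of days 1 and 3.

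Among the named classes, Csf1r was highest in macrophage-like cells, and the unnamed cells had a median of 1156 CPM. The median in macrophage-like cells was 1108 CPM, with 810, 1124, 1076 and 1115 CPM in the diabetic libraries and 888, 1278, 1101 and 1238 CPM in the control libraries. The control value was higher on all 4 days, and the ranges overlapped. Osteoclast-like cells, led by Ctsk and Atp6v0d2, had a median of 1052 CPM and lay below macrophage-like cells in 4 of 4 libraries, by a median log2 difference of 0.26. Monocyte-like cells followed with 837 CPM, and their order with osteoclast-like cells differed between libraries (2 of 4). They were above dendritic-like cells, at 402 CPM, in 8 of 8 libraries.

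Within macrophage-like cells, Csf1r was highest in the cluster led by Ccl8 and Retnla. It stood there at 1185, 1428, 1473 and 1387 CPM in the diabetic libraries and at 1734, 1613 and 1574 CPM in the control libraries of days 3, 5 and 7. This was above the cluster led by Ms4a7 and Selenop, which expressed Gpnmb, in 7 of 7 libraries and above the cluster led by Igf1 and Gdf15 in 6 of 6 libraries, by median log2 differences of 0.50 and 0.39. Dendritic-like cells were divided in the same way: Csf1r was lower in mature dendritic-like cells, led by Fscn1 and Ccl22, than in the cluster led by Cd209a in 8 of 8 libraries, by a median log2 difference of 1.54.

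Neutrophil-like cells had 128, 297, 264 and 641 CPM of Csf1r in the diabetic libraries and 112, 377, 773 and 818 CPM in the control libraries. T cell-like cells, which should lack the receptor, had 140, 284, 121 and 257 CPM in the diabetic libraries and 129, 171, 473 and 439 CPM in the control libraries, so neutrophil-like cells lay above them in 6 of 8 libraries. After thinning to 1000 UMIs a Csf1r UMI was found in more neutrophil-like than T cell-like cells in 8 of 8 libraries (9.65% to 39.7% against 5.56% to 33.3%), and without thinning in 2 of 8. The markers of macrophages moved with Csf1r in neutrophil-like cells: the 9 macrophage markers summed there to 396, 2716, 2114 and 9359 CPM in the diabetic libraries and to 594, 2124, 8254 and 10864 CPM in the control libraries, with 0 of 9 at 0. Per 1000 UMIs of these markers, neutrophil-like cells had 324, 109, 125 and 68.5 Csf1r UMIs in the diabetic libraries and 188, 177, 93.7 and 75.3 in the control libraries. T cell-like cells had 134, 66.6, 84.8 and 71.7 and, in the control libraries, 108, 99.7, 51.7 and 72.4. The ratio was thus higher in neutrophil-like than in T cell-like cells in 7 of 8 libraries, with the diabetic library of day 7 the exception, and the 2 classes lay close on day 7. Monocyte-like cells also lay above T cell-like cells in 7 of 8 libraries, with a median of 110, and macrophage-like cells, with 43.5 to 65.5, lay below them in 8 of 8. The part of macrophage RNA in the Csf1r of neutrophil-like cells was not tested.

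**Figure D3:**
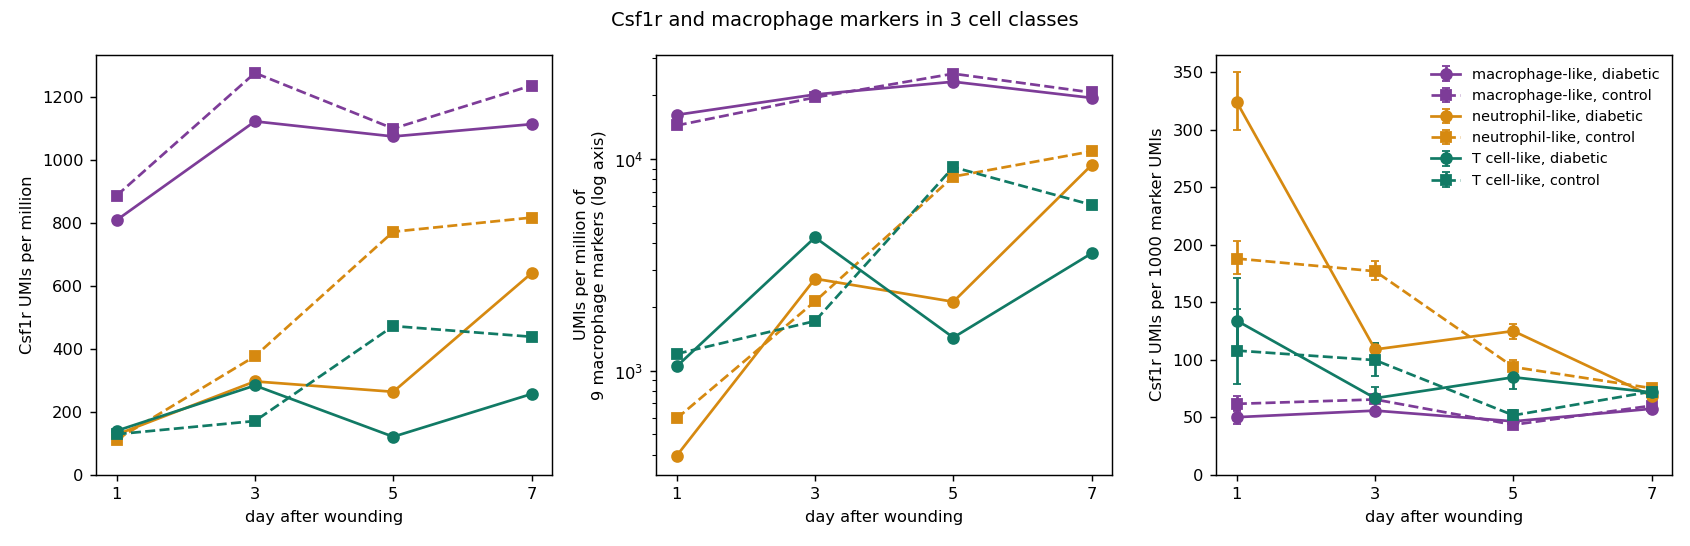
Csf1r (CPM), 9 macrophage markers together (CPM, log axis) and Csf1r per 1000 marker UMIs (bars, 95% Poisson interval) against the day in macrophage-like, neutrophil-like and T cell-like cells of both groups. In neutrophil-like cells Csf1r and the macrophage markers are both higher on day 7 than on day 1, and the ratio lies above that of T cell-like cells in 7 of 8 libraries.

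Csf3r was concentrated in neutrophil-like cells, where it had a median of 697 CPM. It stood at 699, 719, 667 and 434 CPM in the diabetic libraries and at 727, 1257, 694 and 501 CPM in the control libraries. The control library was higher on all 4 days, and the ratio was 0.962 on day 1, 0.572 on day 3, 0.960 on day 5 and 0.866 on day 7. The clusters of these cells differed on day 3, with 802 diabetic against 165 control cells in the Il23a cluster and 983 against 1340 in the cluster led by Igkc and Cxcr2. Within the single clusters the ratio of day 3 ran from 0.516 to 0.893, and it was 0.688 (0.655 to 0.721) in the latter. On day 7 Csf3r was higher in the diabetic library in that Igkc cluster (756 against 298 CPM). So it was in the Il23a (195 against 133 CPM) and Slfn4 clusters (402 against 302 CPM). The cluster led by Cxcr2 and then Igkc held 445 against 961 cells that day, with 530 against 568 CPM. Its diabetic value was higher on day 1 (1442 against 746 CPM) and day 5 (685 against 477 CPM), where the other clusters were lower. The unnamed cells had 110 CPM. Among the named classes macrophage-like cells followed at 72.0 CPM and monocyte-like cells at 58.1 CPM, and T cell-like cells, which should lack the receptor, had 28.8 CPM. After thinning, 40.8% to 62.9% of neutrophil-like cells and 1.32% to 4.19% of T cell-like cells of a library had a Csf3r UMI. Without thinning, these shares over all libraries were 66.6% and 9.87%.

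Csf3r also differed between the clusters of neutrophil-like cells. The Il23a cluster had 133 to 395 CPM of Csf3r, and the cluster led by Igkc and Cxcr2, the chemokine receptor of circulating neutrophils, had 298 to 1563 CPM. The latter was higher for Csf3r in 8 of 8 libraries, by a median log2 difference of 1.91, and lower for Csf1 in 7 of 8 libraries, by a median log2 difference of 0.74. Another cluster, of 2603 cells led by Cxcr2 and then Igkc, lay below the Igkc cluster for Csf3r in 6 of 8 libraries, by a median log2 difference of 0.82, and below the Il23a cluster for Csf1 in 7 of 8, by 0.35. The exception for Csf1 in the Igkc cluster was the control library of day 5, where the Il23a cluster held 24 cells.

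Csf2ra was spread over several myeloid classes. Its medians were 986 CPM in neutrophil-like, 648 CPM in monocyte-like, 580 CPM in dendritic-like and 544 CPM in macrophage-like cells, against 196 CPM in T cell-like cells. Monocyte-like cells lay above dendritic-like cells in 8 of 8 libraries, and dendritic-like above macrophage-like cells in 6 of 8. In dendritic-like cells the groups did not overlap, as for 2.66% of all genes tested there: Csf2ra stood at 631, 587, 586 and 603 CPM in the diabetic libraries and at 507, 549, 460 and 574 CPM in the control libraries. The nearest values, 586 and 574 CPM, lay within counting error.

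Csf2rb was highest in mast cell-like cells, with a median of 3237 CPM, and in dendritic-like cells, with 1834 CPM. Neutrophil-like cells followed at 990 CPM, unnamed cells at 894 CPM, monocyte-like at 764 CPM, osteoclast-like at 420 CPM and macrophage-like cells at 366 CPM. Mast cell-like lay above dendritic-like cells in 4 of 4 libraries and dendritic-like above neutrophil-like cells in 8 of 8. Csf2rb2 had the same first places, with 2011 CPM in mast cell-like and 410 CPM in dendritic-like cells. Among the named classes its median was then higher in monocyte-like (255 CPM) than in neutrophil-like cells (202 CPM). In the control library of day 3 the order was reversed. Monocyte-like cells had 142 CPM there, and neutrophil-like cells of the control libraries had at least 167 CPM.

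The genes of the beta chains lie 20030 bases apart on chromosome 15 of GRCm38, Csf2rb from 78325752 to 78353847 on the plus strand and Csf2rb2 from 78282507 to 78305721 on the minus strand. Their coding sequences were identical at 2503 of 2628 aligned bases (95.2%), so reads from either gene could be credited to the other. Of the words of 50 bases in the whole Csf2rb transcript, 18.9% also occurred in the Csf2rb2 transcript, whereas 0 of 451 words in its last 500 bases did. The ends of the coding sequences from the GENCODE transcripts are shown because they hold the break in the likeness. Capitals mark bases that differ in the alignment, and the capital run in Csf2rb has no counterpart in Csf2rb2.
Csf2rb-201: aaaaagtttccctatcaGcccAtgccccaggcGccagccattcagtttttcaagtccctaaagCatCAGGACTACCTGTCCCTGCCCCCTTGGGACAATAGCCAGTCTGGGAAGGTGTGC
Csf2rb2-201: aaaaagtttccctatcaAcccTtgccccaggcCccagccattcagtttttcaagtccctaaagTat

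Csf2rb2 made up 17.3% to 25.8% of the UMIs of the pair in all cells of a library. In neutrophil-like cells it made up 13.2% to 19.5% and in macrophage-like cells 23.6% to 31.2%, with macrophage-like cells higher in each library. Mast cell-like cells had 49.4% and 41.5% in the diabetic libraries of days 1 and 3 and 32.4% in the control library of day 1, above each other class there. In the control library of day 1, NK cell-like (31.6%, 12.6 to 56.6) and macrophage-like cells (31.2%, 24.1 to 39.1) lay within counting error of this value. In the diabetic library of day 3 the interval (36.9 to 46.1) overlapped those of T cell-like (24.7 to 38.1) and NK cell-like cells (4.33 to 48.1). In the control library of day 3 mast cell-like cells had 19.9%, below the 26.4% of macrophage-like cells. How many reads were credited to the wrong gene of the pair was not tested.

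In monocyte-like cells the beta chains did not overlap between the groups. Csf2rb stood at 868, 773, 1225 and 803 CPM in the diabetic libraries and at 733, 690, 588 and 756 CPM in the control libraries. Csf2rb2 stood at 260, 257, 362 and 292 CPM in the diabetic libraries and at 254, 142, 197 and 231 CPM in the control libraries. The values nearest each other, 773 (752 to 796) and 756 (684 to 833) CPM for Csf2rb and 257 (244 to 270) and 254 (244 to 264) CPM for Csf2rb2, lay within counting error. The other 5 genes overlapped in these cells, and over all genes tested there 3.49% did not overlap. On day 5 the ratio was 2.08 (1.92 to 2.26) for Csf2rb and 1.83 (1.59 to 2.12) for Csf2rb2.

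In dendritic-like cells Csf2rb stood at 1884, 1894, 2469 and 1873 CPM in the diabetic libraries and at 1543, 1557, 1435 and 1794 CPM in the control libraries. Csf2rb2 stood at 444, 455, 667 and 425 CPM in the diabetic libraries and at 359, 352, 396 and 352 CPM in the control libraries. With Csf2ra, 3 of the 6 genes tested in dendritic-like cells did not overlap, against 2.66% of all genes tested, although for each of the 3 the counting intervals of the nearest values overlapped. In the Cd209a cluster alone, Csf2rb and Csf2rb2 were higher in the diabetic library on all 4 days, with ratios of 1.79 and 1.71 on day 5 and 1.05 and 1.18 on day 7.

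In macrophage-like cells Csf2rb stood at 284, 420, 457 and 635 CPM in the diabetic libraries and at 244, 312, 267 and 458 CPM in the control libraries, higher in the diabetic library on all 4 days with overlapping ranges. The ratio was 1.17 (0.879 to 1.54) on day 1, 1.35 on day 3, 1.72 on day 5 and 1.39 on day 7. The clusters that made up these cells differed between days, since the Igf1 cluster held 802 and 1988 cells in the diabetic and control libraries of day 7 and the Gpnmb cluster 999 cells in the control library of day 5. Within the Igf1 cluster Csf2rb stood at 623, 988 and 707 CPM in the diabetic libraries of days 3, 5 and 7 and at 457, 323 and 483 CPM in the control libraries. Within the Gpnmb cluster it was higher in the diabetic library on days 1, 3 and 5 and lower on day 7, with 428 against 541 CPM. In macrophage-like cells 0 of 7 genes did not overlap, against 3.52% of all genes tested. In neutrophil-like cells 0 of the 6 genes tested did not overlap, against 1.06%. Csf2rb stood there at 905, 1011, 1237 and 885 CPM in the diabetic libraries and at 881, 1243, 998 and 983 CPM in the control libraries, with the diabetic value higher on 2 of 4 days.

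**Figure D4:**
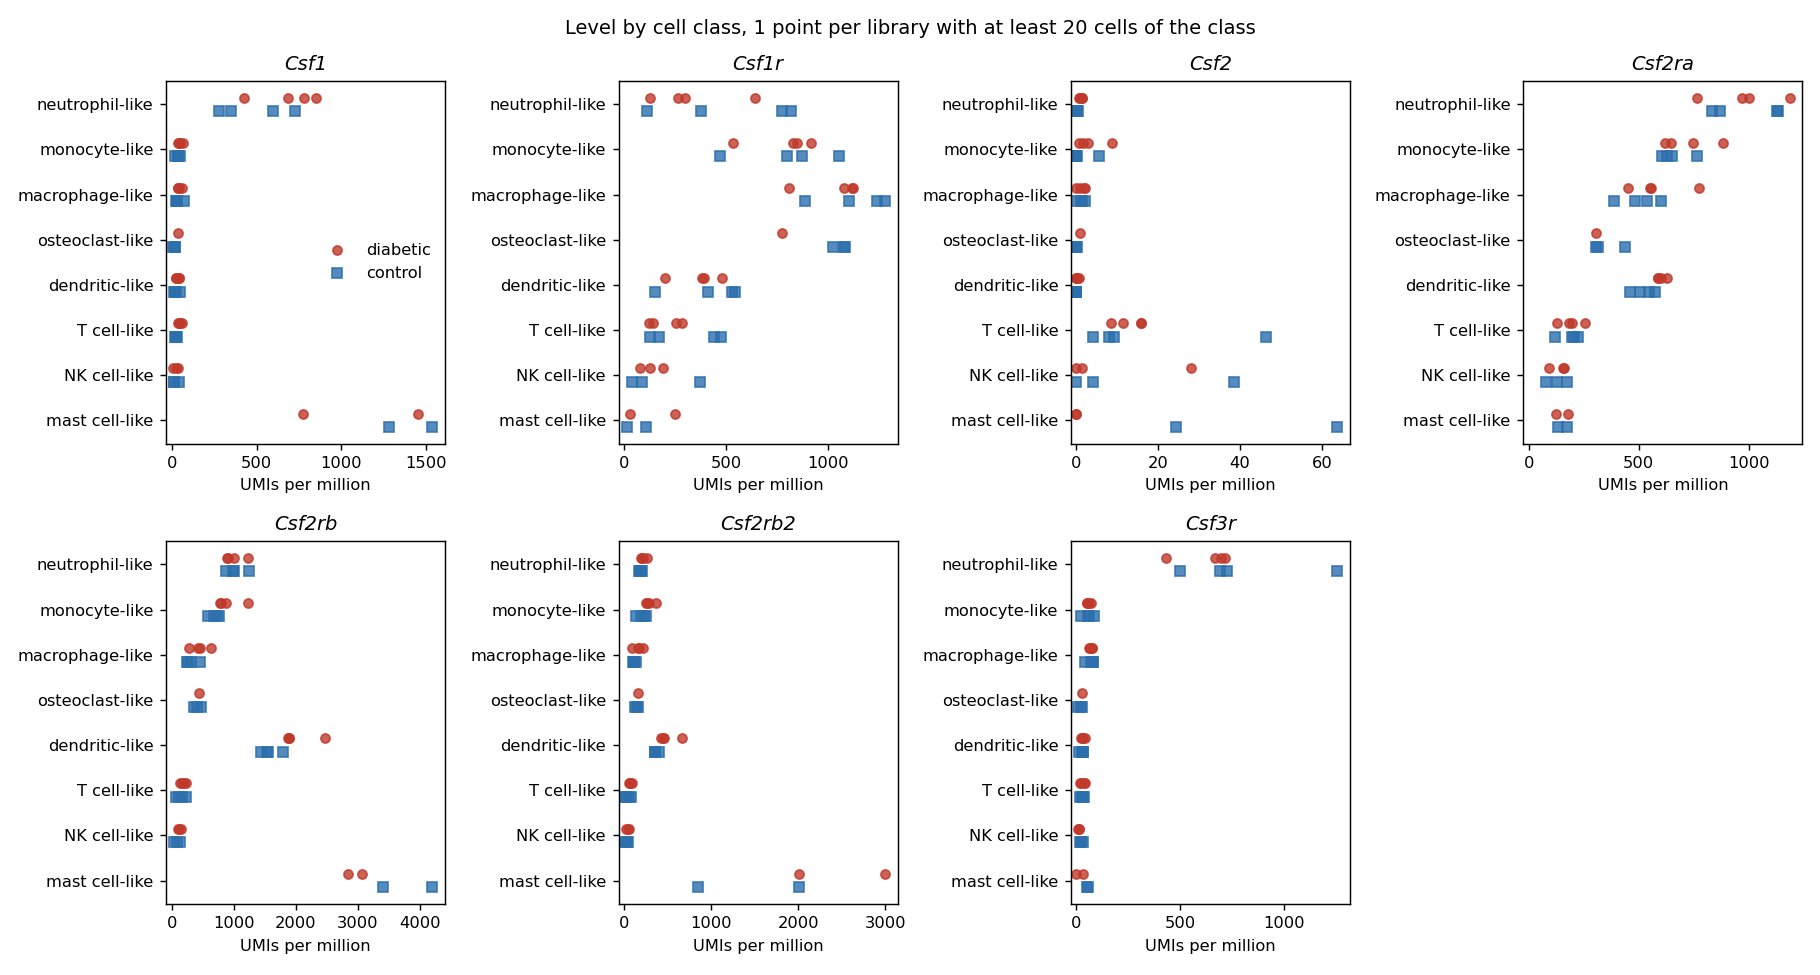
Level of each gene (horizontal axis, CPM) by cell class (vertical axis), 1 point for each library with at least 20 cells of the class, diabetic and control apart and fibroblast-like and unnamed cells not drawn. Csf1 stands out in mast cell-like and neutrophil-like cells, Csf3r in neutrophil-like cells, Csf1r in macrophage-like, osteoclast-like and monocyte-like cells, and Csf2rb and Csf2rb2 in mast cell-like and dendritic-like cells.

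**Figure D5:**
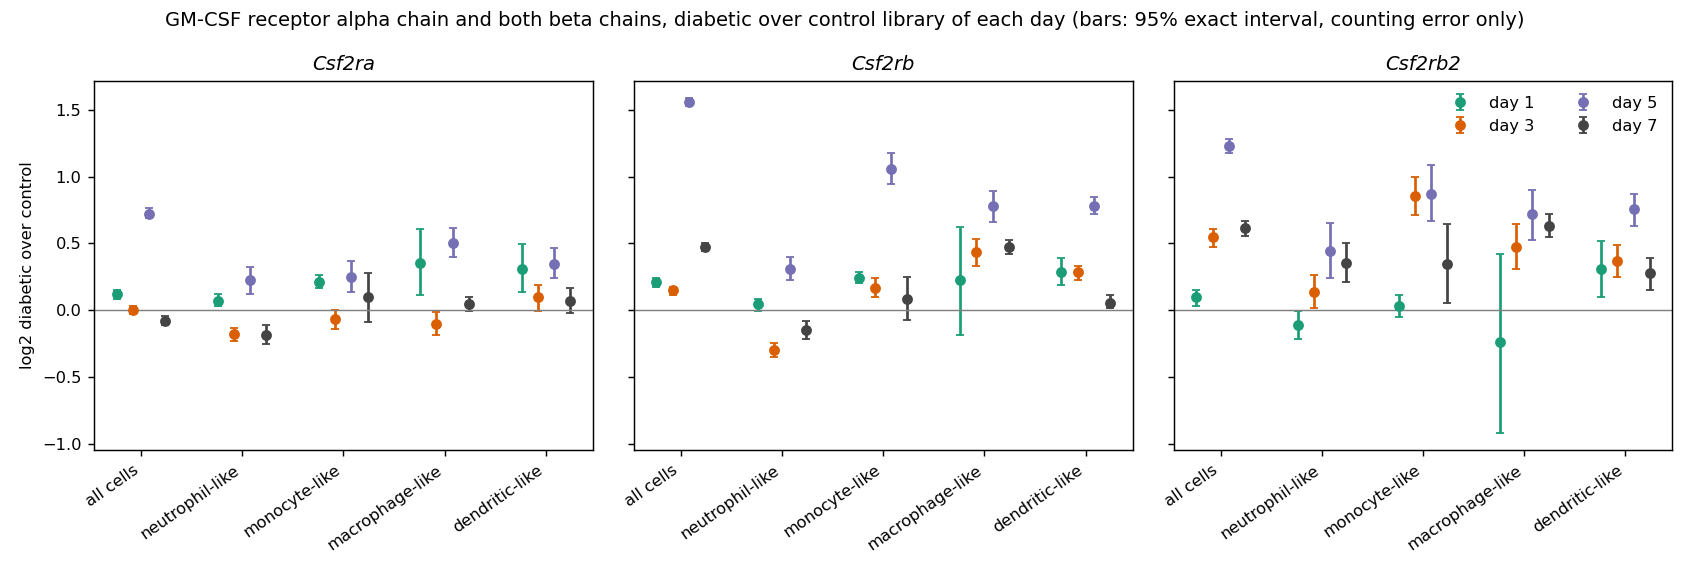
Log2 ratio of the diabetic to the control library of a day (vertical axis, bars for the 95% counting interval) for Csf2ra, Csf2rb and Csf2rb2 in all cells and in 4 classes, 1 colour a day. The ratios of Csf2rb and Csf2rb2 lie highest on day 5, with 2.95 and 2.34 in all cells.

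A difference between diabetic and control wounds that the days share was tested in edgeR by its quasi-likelihood method on UMIs summed per library, with day as a block and Benjamini-Hochberg adjustment over all genes tested. In all cells 0 of 7 genes passed an adjusted p of 0.05, as did 0% of all genes tested. The estimates (log2 of diabetic over control ± SE, 4 libraries a group) were 0.89 ± 0.51 for Csf1 (adjusted p = 0.508), -0.35 ± 0.19 for Csf1r (adjusted p = 0.490), 0.62 ± 0.29 for Csf2rb (adjusted p = 0.468) and 0.65 ± 0.23 for Csf2rb2 (adjusted p = 0.451). Those of Csf2 (0.62 ± 0.52), Csf2ra (0.23 ± 0.21) and Csf3r (0.19 ± 0.46) had adjusted p of 0.619, 0.650 and 0.875. The estimates depended on day 5. Without its libraries they were 0.29 for Csf1, -0.19 for Csf1r, 0.09 for Csf2, 0.01 for Csf2ra, 0.28 for Csf2rb and 0.42 for Csf2rb2, and that of Csf3r turned to -0.37. At an unadjusted p under 0.05 there was 1 gene of the 7, against 10.9% of all genes tested, and with DESeq2 0 passed.

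Within the classes, 0 of the 6 genes tested passed in neutrophil-like cells (0.0185% of all genes tested), 0 of 7 in monocyte-like (0.0388%), 0 of 7 in macrophage-like (0.0365%), 0 of 6 in dendritic-like (0.0101%) and 0 of 7 in T cell-like cells (0% of all genes tested). At an unadjusted p under 0.05 there were 1, 4, 2, 2 and 1 of them, against 10.9%, 7.63%, 8.56%, 6.05% and 3.18% of all genes tested. With DESeq2, Csf2rb in macrophage-like cells passed, and 0 genes passed in the other 4 classes. Csf2rb in macrophage-like cells had a log2 difference of 0.51 ± 0.12 and an adjusted p of 0.231 by edgeR, against 0.0228 by DESeq2 and 0.0364 by edgeR without the filter on low counts. The other estimates of edgeR were 0.57 ± 0.15 for Csf2rb2 in monocyte-like cells (adjusted p = 0.457), 0.43 ± 0.16 for Csf2rb there (adjusted p = 0.587) and 0.50 ± 0.15 for Csf2rb2 in macrophage-like cells (adjusted p = 0.385). In dendritic-like cells they were 0.34 ± 0.13 for Csf2rb (adjusted p = 0.775), 0.41 ± 0.12 for Csf2rb2 (adjusted p = 0.656) and 0.19 ± 0.11 for Csf2ra (adjusted p = 0.880). Csf1 had 0.70 ± 0.31 in neutrophil-like (adjusted p = 0.439) and 0.76 ± 0.24 in T cell-like cells (adjusted p = 1.00). Without day 5 the estimates were 0.35 for Csf1 in neutrophil-like cells, and 0.21 and 0.19 for Csf2rb in monocyte-like and dendritic-like cells. The edgeR test of Csf2rb2 in monocyte-like cells passed only without the filter on low counts (adjusted p = 0.0126).

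The level over days was tested in both groups together, as a slope per day with the group as a covariate. In all cells, 3 of 7 genes fell with the day, against 10.3% of all genes tested that passed in either direction. Csf1 fell by 0.42 ± 0.09 on the log2 scale per day (adjusted p = 0.0334, edgeR), Csf2ra fell by 0.21 ± 0.05 (adjusted p = 0.0358) and Csf3r fell by 0.35 ± 0.09 (adjusted p = 0.0457). Csf1r had a slope of 0.12 ± 0.05 and did not pass (adjusted p = 0.132). Without the TMM factors Csf1 alone passed, with day as a factor 0 of these genes did, and without both libraries of day 1, of day 3 or of day 7 again 0. Neutrophil-like cells, the main holders of Csf1 and Csf3r, went from 2454 to 768 in the diabetic libraries between days 1 and 7 and from 2652 to 1098 in the control libraries.

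In neutrophil-like cells all 6 genes tested passed, with Csf2 too low to be tested, and so did 43.4% of all genes tested. Csf1 fell by 0.36 ± 0.06 per day on the log2 scale (adjusted p = 0.00158, edgeR), Csf3r fell by 0.28 ± 0.06 (adjusted p = 0.00426) and Csf2ra fell by 0.25 ± 0.05 (adjusted p = 0.00330). Csf2rb2 fell by 0.17 ± 0.05 (adjusted p = 0.0256) and Csf2rb fell by 0.15 ± 0.06 (adjusted p = 0.0488), whereas Csf1r rose by 0.25 ± 0.05 (adjusted p = 0.00305). The scaling mattered here: without the TMM factors the median slope of all genes moved from 0.02 to 0.17, Csf1 and Csf1r alone passed, and the slope of Csf2rb turned to 0.01. With cells named singly 1 of the 6 passed and the slope of Csf2rb was 0.03. Without the libraries of day 7, 0 of 6 passed, and without those of day 1, 2 of 6. The 9 macrophage markers, given above for these cells, were higher on day 7 than on day 1 in both groups, and their part in the slopes was not tested. The clusters of these cells also changed over days. The Ngp cluster went from 948 to 6 cells in the diabetic libraries of days 1 and 7 and from 690 to 1 in the control libraries. The part of this change in the slopes was not tested.

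In the other classes 0 of the genes tested passed the slope test: of 7 in monocyte-like cells (0.911% of all genes tested), 6 in macrophage-like (0.859%), 6 in dendritic-like (0.335%) and 7 in T cell-like cells (0.0938%). At an unadjusted p under 0.05 there were 1, 3, 2 and 1, against 14%, 10.9%, 11.2% and 7.82% of all genes tested. The closest were Csf2rb in macrophage-like cells, with a slope of 0.16 ± 0.04 (adjusted p = 0.0536 by edgeR, 0.00669 by DESeq2), and Csf1r in dendritic-like cells, with 0.22 ± 0.05 (adjusted p = 0.119 by edgeR, 0.00309 by DESeq2). With DESeq2, 0 genes passed in monocyte-like and T cell-like cells. Whether the slope differed between the groups was tested in all cells, neutrophil-like and macrophage-like cells: 0 of 7, 6 and 7 genes passed, as did 0%, 0% and 0% of all genes tested, and 0 of them had an unadjusted p under 0.05.

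The other genes of these pathways were taken from a list of 67 genes of ligands, receptors, kinases and adaptors, STAT factors, inhibitors, lineage factors, known response genes and a sheddase. Between diabetic and control wounds, 0 of the 61 to 64 genes tested passed in edgeR in all cells or in any of the 5 classes, with 14, 8, 14, 13, 7 and 2 of them at an unadjusted p under 0.05 in all cells, neutrophil-like, monocyte-like, macrophage-like, dendritic-like and T cell-like cells. In the same order, 10.9%, 10.9%, 7.63%, 8.56%, 6.05% and 3.18% of all genes tested had such a p, and DESeq2 passed 3, 0, 2, 2, 0 and 0 of the listed genes. The median log2 difference of the list in all cells was 0.11, against 0.00 over all genes. Over days, DESeq2 passed 19 of the listed genes in all cells. In edgeR 3 of the 64 tested rose and 7 fell there, where 10.3% of all genes tested passed. Among those with the largest slopes were Csf3, the gene of G-CSF (-0.45 ± 0.08 per day, adjusted p = 0.0260, edgeR), Cebpe, a factor of granulocyte maturation (-0.38 ± 0.09, adjusted p = 0.0396), the myeloid kinase Fgr (-0.31 ± 0.06, adjusted p = 0.0281) and Irf8, a factor of monocyte and dendritic cell lineages (0.25 ± 0.06, adjusted p = 0.0394). Csf3 itself stood at 206, 79.4, 77.9 and 60.0 CPM in the diabetic libraries and at 216, 45.0, 34.2 and 31.0 CPM in the control libraries.

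In neutrophil-like cells 11 of the 63 listed genes tested rose and 21 fell over days, where 43.4% of all genes tested passed in either direction. Csf3 fell by 0.56 ± 0.11 (adjusted p = 0.00225, edgeR). Irf8 rose by 0.44 ± 0.05 (adjusted p = 0.000302), Pparg, a nuclear receptor, by 0.42 ± 0.08 (adjusted p = 0.00201) and Socs2, an inhibitor of cytokine signalling, by 0.40 ± 0.09 (adjusted p = 0.00387). Of 19 kinases and adaptors in these cells, 1 rose and 8 fell, a share near that 43.4%. In monocyte-like cells Socs2 rose by 0.48 ± 0.06 (adjusted p = 0.00565, edgeR) and Pik3r1, a subunit of PI3 kinase, by 0.15 ± 0.03 (adjusted p = 0.0491), and in dendritic-like cells Maf, a transcription factor, rose by 0.42 ± 0.07 (adjusted p = 0.0203). In macrophage-like and T cell-like cells 0 passed in edgeR, with 16 and 6 at an unadjusted p under 0.05, against 10.9% and 7.82% of all genes tested, and 5 and 1 with DESeq2. In neutrophil-like, monocyte-like and dendritic-like cells DESeq2 passed 37, 7 and 2 of the listed genes. The other ligands of these receptors were scarce: Il34, the second ligand of the M-CSF receptor, had 1 to 18 UMIs a library, and Il3 had 0 to 2.

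Genes with the most similar pattern were ranked by the Pearson correlation of log2(CPM + 10) over 55 sums by library and class, which share libraries and cells, so these values describe and do not test. Csf1 was most like Hdc, the histidine decarboxylase that makes histamine (r = 0.94), and Rab44 (r = 0.94), followed by Adgrg3, Vmp1 and Mboat7. Csf1r was most like Clec4a3 (r = 0.95), Myof, Lgmn, Ctss and Asah1, of which the last 3 encode lysosomal enzymes. Genes most like Csf2ra included Gabarap (r = 0.93), Mcl1, Syk and Ceacam1. Csf2rb and Csf2rb2 were each most like the other (r = 0.95). Csf2rb was next most like Basp1, I830077J02Rik, Gab2 and Emilin2, and Csf2rb2 was next most like Mctp1, Gab2, Basp1 and I830077J02Rik. Csf3r was most like F630028O10Rik and A530064D06Rik (r = 0.93 for both), then Entpd1, Cd300lf and Cxcr2, the last a marker used to name neutrophil-like cells. Between the genes of this family the correlation of Csf1 with Csf1r, ligand and receptor, was -0.40, and that of Csf2ra with Csf2rb, the 2 chains of 1 receptor, was 0.52.

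PU.1, the myeloid factor encoded by Spi1, binds a core that reads GAGGAA. The letters GAGGAA, on either strand (TTCCTC on the other), were looked for in the 250 bases before the start that RefSeq gives on GRCm38.p6, which can differ from the bounds of the gene in GENCODE. Of the 7 genes, 5 matched an entry, all but Csf1r and Csf2rb. The letters occurred in 23.3% of 32851 promoters, and in those of Csf2ra, Csf2rb2 and Csf3r but not of Csf1 and Csf2. Windows of 30 bases are shown because these 3 genes are receptors held by myeloid classes here, with the matched letters in capitals, on the strand of the gene. The windows lie at chr19:61228419-61228448 (minus strand), chr15:78305871-78305900 (minus strand) and chr4:126024561-126024590 (plus strand). By the GENCODE bounds, the window of Csf3r lies inside the gene and that of Csf2ra reaches into it. A match describes the letters only, and no binding was measured.
Csf2ra: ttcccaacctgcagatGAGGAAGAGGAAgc
Csf2rb2: ctctgtgtctgcTTCCTCcagagaagtcag
Csf3r: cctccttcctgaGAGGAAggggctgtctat

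In the same build Csf1 lies on chromosome 3 from 107741048 to 107760469 on the minus strand, Csf2 on chromosome 11 from 54247271 to 54249667 on the minus strand, Csf1r on chromosome 18 from 61100598 to 61132149 on the plus strand and Csf3r on chromosome 4 from 126024550 to 126044440 on the plus strand. Csf2ra lies on chromosome 19 from 61223957 to 61228429 on the minus strand.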

How the data were processed

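The authors deposited raw counts, the UMIs of each gene in each cell, in 1 table for each of 8 libraries. The submitters' processing notes name fastp 0.20.1 and mm9, and the methods name UMI-tools and STAR with an Ensembl mouse genome. Gene coordinates are those of GENCODE on GRCm38. Barcodes with over 200 genes outside the mitochondrial ones and under 20% mitochondrial UMIs were kept (35158 of 38959). Scrublet called 68 cells (0.193%), so this caller has not worked and doublets were kept. Cells were clustered with scanpy 1.11.5 (2000 variable genes without the 7 genes, 10 principal components, 30 neighbours, resolution 0.8). Clusters were named from markers with at least 3 of them in 10% of cells and a mean log2 fold of at least 0.25, after adding 20 CPM. A cluster of 1634 cells with markers of NK and T cells was split by the names its cells had at resolution 1.6, chosen after seeing the data. The 2 highest class scores of 3619 cells (10.3%) lay within 0.1.

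UMIs were summed per library and class with at least 20 cells and scaled to CPM. Intervals are exact Poisson or binomial at 95% and cover counting error only. Shares of cells were thinned to 1000 UMIs, which left out 0.537% to 14.4% of the cells of a library. Sums were tested in edgeR 4.0.16 (R 4.3.3) by its quasi-likelihood method with Benjamini-Hochberg adjustment, with DESeq2 1.42.0 as an alternative, after a test on simulated data. A p-value measures the spread between libraries of different days only. Other alternatives were the filter on low counts, the scaling, day as a factor, the naming of cells and leaving out a day. All 7 genes are reported, with the 5 genes most like each and up to 5 pathway genes with the largest passing change per comparison. Some results chosen by this rule are not reported here. The members and lists were chosen with earlier results of these data known.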

Additional observations from a re-analysis of the deposited data

Results flagged for a closer look

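Csf1r had UMIs outside the cells that the comparisons by class used. In the unnamed cluster of 3297 cells, led by Gm26917 and Malat1 and with a median of 1012 UMIs a cell, it stood at 1216 CPM. In the barcodes removed by the filter on cells it stood at 901 CPM over all libraries, with 550, 775, 694 and 663 CPM in the diabetic libraries of days 1, 3, 5 and 7 and 576, 1261, 1136 and 667 CPM in the control libraries. The sources of these UMIs were not tested.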

How the results depend on the processing

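No paired analysis by replicate number was possible because each group and day has 1 library, whereas the block on day pairs the libraries of a day. Of the fitted values of the 7 genes that were tallied, 363 kept their direction and side of the threshold under the alternatives. A further 35 kept the direction but no longer passed, 13 newly passed and 3 turned. The tally did not hold each gene in each comparison, so some passes counted below lie outside it. Between diabetic and control wounds, the number of the genes that passed was 0 as reported and 1 without the filter on low counts in monocyte-like and macrophage-like cells and with DESeq2 in macrophage-like cells. The estimate of Csf3r in all cells ran from -0.37 to 0.46 when a day was left out, and was -0.37 without day 5. Over days in all cells, 3 passed as reported, 1 without TMM, 0 with day as a factor and 0 to 3 when a day was left out. In neutrophil-like cells 6 passed as reported, 2 without TMM, 1 with cells named singly and 0 to 6 when a day was left out, and the slope of Csf2rb turned to 0.01 without TMM and 0.03 with cells named singly. In macrophage-like cells 1 passed without the filter, with DESeq2, with day as a factor and with at least 500 genes per cell. In dendritic-like cells 2 passed without the filter and 1 with DESeq2 or with day as a factor. Leaving out a day gave 0 to 1 in monocyte-like, macrophage-like and dendritic-like cells. The share of Csf1 UMIs in neutrophil-like cells was 82.0% as reported, 59.6% with cells named singly, 67.8% at resolution 1.6, 81.4% with the mitochondrial share regressed out and 82.9% without the highest 5% of doublet scores, the last chosen after seeing the data. Csf1r was found in more neutrophil-like than T cell-like cells in 8 libraries after thinning and in 2 without. With the unnamed cluster left out, also chosen after seeing the data, the ratios of day 3 were 1.29 for Csf1, 0.887 for Csf1r, 1.07 for Csf2rb and 0.657 for Csf3r. The cause of these changes was not tested.

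Counts over all genes also moved. Between the groups, 0, 2, 4, 4, 1 and 0 genes passed in all cells, neutrophil-like, monocyte-like, macrophage-like, dendritic-like and T cell-like cells, against 93, 63, 24, 56, 14 and 1 with DESeq2 and 1, 197, 136, 178, 118 and 35 without the filter. Over days, 1378, 4414, 90, 90, 32 and 8 passed, against 2846, 4612, 335, 205, 159 and 78 with DESeq2. Without the filter, 416, 316, 336 and 118 passed over days in monocyte-like, macrophage-like, dendritic-like and T cell-like cells, and with day as a factor 0, 2526, 207, 216 and 57 in all cells and in neutrophil-like to dendritic-like cells. Without TMM 2372 passed in all cells over days. With cells named singly 701, 149 and 221 passed over days in neutrophil-like, monocyte-like and macrophage-like cells, and at resolution 1.6 213 in macrophage-like cells. Between the groups, other namings and filters of cells, no TMM and no day block gave 0 to 10 genes in a class. Leaving out a day gave 0 to 22 genes between the groups, and over days 0 to 1683, 126 to 4883, 5 to 300, 36 to 107, 7 to 76 and 0 to 50. For the difference in slope, 0 genes passed as reported and 24 and 28 without the filter in neutrophil-like and macrophage-like cells. Csf2, with 15 to 118 UMIs a library, is limited by depth.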
